A study of Caenorhabditis elegans with 36 samples.

Results

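The genes described are the heat shock factor gene hsf-1 of Caenorhabditis elegans and 9 genes of chaperones of the cytosol and nucleus, taken by their gene identifiers out of 24931 named genes in the deposited count tables. They are hsf-1 (Y53C10A.12), the constitutive chaperone genes hsp-1 (F26D10.3) and hsp-90 (C47E8.5, also called daf-21), the myosin chaperone gene unc-45 (F30H5.1), the heat-inducible Hsp70 genes hsp-70 (C12C8.1) and F44E5.4, and the small heat shock protein genes hsp-16.2 (Y46H3A.3), hsp-16.41 (Y46H3A.2), hsp-16.48 (T27E4.3) and hsp-12.6 (F38E11.2). All 10 passed the filter on low counts in every comparison.

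HSF-1 is the transcription factor that binds heat shock elements and switches on chaperone genes when unfolded protein accumulates. It is controlled largely at the level of the protein, so the amount of its transcript does not measure its activity. Constitutive chaperones such as Hsc70 (hsp-1) and Hsp90 (hsp-90) fold proteins in unstressed cells and are abundant in the germline and in growing tissue, while the inducible Hsp70 proteins and the HSP-16 proteins are scarce until heat or another stress induces them. UNC-45 folds the head of muscle myosin together with Hsp90 and is needed to build thick filaments in the body wall muscle.

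RNA of whole animals was sequenced in 36 libraries, 3 in each of 12 groups, and reads were counted per gene by the authors. One set compared the deletion mutant mbl-1(tm1563), which lacks part of the gene of the splicing factor Muscleblind, with the N2 wild type. The other set held 2 strains with 123 CUG repeats (123CUG; strain 1 carries mgIs64, strain 2 mgIs84) and 2 with 0 CUG repeats (0CUG; strain 1 carries mgIs65, strain 2 mgIs85). Both constructs hold gfp and a 3′ UTR behind the promoter of myo-3, a myosin gene of body wall muscle, so the 0CUG controls also express the transgene. Each was collected as 2-day adults and as L4, the last larval stage. All have the Bristol background, were synchronised with hypochlorite and were fed HT115 bacteria with an empty RNAi vector. The study's title names nuclear MBL-1, toxic repeats and mitochondrial shape, and the comparisons below ask what the chaperone genes did in the same animals. The labels do not say whether the 3 libraries of a group came from separate cultures: the p-values below refer to library-to-library spread alone, some of which may be technical, and each construct was present in only 2 strains.

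Libraries held 25239933 to 47903768 reads. Levels are given in CPM, a gene's count scaled to its library's total. The totals were first adjusted by edgeR's TMM factors, on 1 scale over the 36 libraries. Several libraries stood apart from their labels. The 13 oocyte and early embryo markers summed to 36.5 to 133 CPM in the transgenic L4 libraries but to 4450 to 10441 CPM in the mbl-1 and N2 libraries labelled L4, as high as or above the 3420 to 5218 CPM of the transgenic 2-day adults. Likewise, the 9 cuticle collagens made at moults summed to 1861 to 2778 CPM in the transgenic L4 libraries and to 3.99 to 9.96 CPM in the mbl-1 and N2 libraries labelled L4. By these markers those 6 libraries resembled adults, against their label, and are called "labelled L4". Among the 2-day adults, the third mbl-1 library had 9219 CPM of oocyte markers and 4673 CPM of the 12 body wall muscle markers, against 2870 and 4729 CPM of oocyte and 8788 and 7050 CPM of muscle markers in the other mbl-1 libraries. The third N2 library had 3864 and 5505 CPM of these lists, against 9604 and 7769 CPM of oocyte and 2109 and 2721 CPM of muscle markers in the other N2 libraries, so results that rest on these 2 libraries are given with and without them. The mbl-1 gene itself (K02H8.1) was read at 9.63 to 14.6 CPM in mutants labelled L4 and at 13.4 to 14.3 CPM in N2 animals labelled L4. In 2-day adults it was read at 14.3, 13.9 and 10.6 CPM in mutants, against 15.4, 17.4 and 33.2 CPM in N2 animals (log2 difference -0.75 ± 0.359; adjusted p = 0.91). A count over the whole gene does not check the deletion, which removes only part of it.

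In build WBcel235, hsf-1 lies on chromosome I at 11953511 to 11961984 (minus strand) and hsp-70 on the same chromosome at 9320361 to 9322511 (minus). F44E5.4 lies on chromosome II at 11757106 to 11759311 (minus), next to its near-identical copy F44E5.5 at 11759681 to 11761852 (plus). unc-45 lies on chromosome III at 491547 to 502150 (plus). hsp-1 lies on chromosome IV at 17278957 to 17281335 (plus) and hsp-12.6 on the same chromosome at 9446385 to 9446980 (minus). Chromosome V holds hsp-90 at 14684918 to 14688543 (plus), hsp-16.48 at 9088131 to 9088617 (plus) and the divergent pair hsp-16.2 at 1804334 to 1804971 (minus) and hsp-16.41 at 1805233 to 1805875 (plus), whose starts are 261 bases apart. The hsp-16.48 gene has a copy of the same length, T27E4.9, on the opposite strand at 9089280 to 9089766. Annotated genes also overlap hsp-1 (F26D10.24, same strand), hsp-90 (C47E8.4, opposite strand) and hsp-70 (F26H9.8, opposite strand). The strandedness of the counting is not given in the sources used here, so reads from these overlaps cannot be told apart.

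The constitutive chaperones were the most abundant of these transcripts. Per kilobase of gene length, the median level over the 36 libraries was 1303 CPM per kb for hsp-1 and 1219 CPM per kb for hsp-90, against 27 for hsf-1 and 24.5 for unc-45. On the same scale the other 6 genes stood at 19 for hsp-16.2, 17.3 for hsp-16.41, 7.75 for hsp-70, 3.26 for hsp-12.6, 1.77 for hsp-16.48 and 1.3 for F44E5.4. The order moved with the groups. In the transgenic L4 libraries hsp-16.2 reached 61 CPM per kb and hsp-16.41 reached 52.7, above unc-45 at 25.5, hsp-70 at 18, hsf-1 at 8.5, F44E5.4 at 8.09 and hsp-16.48 at 8.07. In mbl-1 and N2 libraries hsf-1 stood at 34.5 and unc-45 at 25, while none of those 6 genes had a median above 3.97 CPM per kb. Within the 12 groups the highest of 3 libraries exceeded the lowest by a median factor of 1.18 for hsf-1, 1.2 for hsp-1, 1.1 for hsp-90 and 1.14 for unc-45. The other 6 genes spread more, with median factors of 1.73 for hsp-70, 1.83 for F44E5.4, 1.94 for hsp-16.2, 1.9 for hsp-16.41, 2.13 for hsp-16.48 and 2.58 for hsp-12.6.

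hsf-1, the transcription factor, had 1 narrow low level and 2 overlapping higher ones. It lay between 58.4 and 79.4 CPM in the 12 transgenic 2-day adult libraries and between 14.5 and 23.8 CPM in the 12 transgenic L4 libraries, with no overlap. mbl-1 and N2 libraries lay between 58.7 and 94.8 CPM whichever stage they were labelled. hsp-90 followed the same order at 2485 to 3796 CPM in transgenic 2-day adults, 1694 to 2845 CPM in transgenic L4 animals and 2550 to 4301 CPM in mbl-1 and N2 animals. hsp-1, the cytosolic Hsc70, spanned 2286 to 3501 CPM, 1591 to 2930 CPM and 2303 to 3938 CPM in those sets. unc-45 stayed between 55.5 and 96.3 CPM in all 36 libraries, and its medians over the 3 sets were 69.7, 75.9 and 74.4 CPM.

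**Figure D1:**
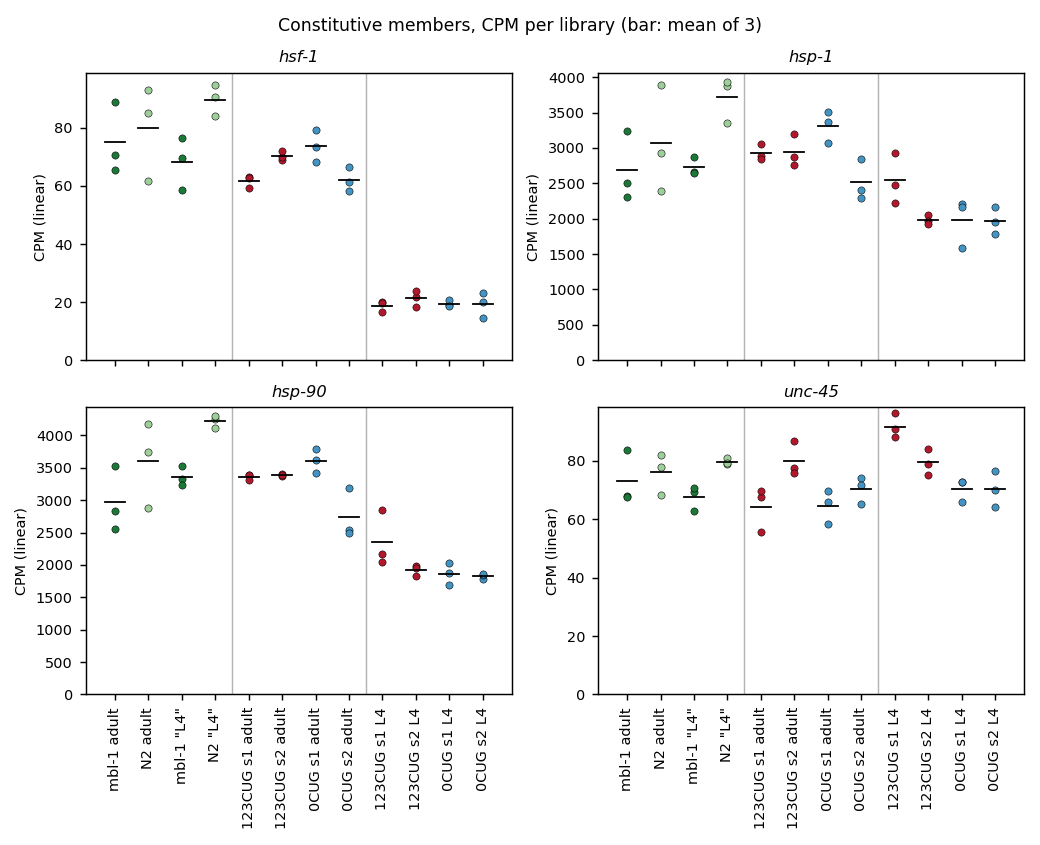
Level in CPM (linear axis) of hsf-1, hsp-1, hsp-90 and unc-45 in each library (points) with the mean of 3 (bars), by genotype and stage. hsf-1 in transgenic L4 libraries lies at 14.5 to 23.8 CPM, below the 58.4 to 94.8 CPM of all other libraries, while unc-45 shows no such step.

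The heat-inducible genes took the opposite order, with transgenic L4 libraries highest and mbl-1 and N2 libraries lowest. hsp-70 had a median of 36.2 CPM in transgenic L4 libraries, 15.6 CPM in transgenic 2-day adults and 2.1 CPM in mbl-1 and N2 libraries. F44E5.4 had medians of 17, 2.72 and 0.413 CPM, and hsp-16.2 had medians of 36.1, 11.3 and 2.1 CPM in the same sets. hsp-16.41 stood at 30.8, 10.2 and 2.33 CPM, and hsp-16.48 at 3.49, 0.717 and 0.449 CPM. The lowest transgenic library of either stage lay above the highest mbl-1 or N2 library for hsp-70 (8.39 and 2.84 CPM), F44E5.4 (2.33 and 0.686 CPM) and hsp-16.2 (6.39 and 3.41 CPM). For hsp-16.41 the lowest transgenic value of 3.34 CPM fell just under the highest mbl-1 value of 3.52 CPM. The transgenic 2-day adult medians were 7.41 times those of mbl-1 and N2 for hsp-70, 6.58 times for F44E5.4, 5.36 times for hsp-16.2 and 4.38 times for hsp-16.41. For hsp-16.48 the ratio was only 1.6, and transgenic 2-day adults (0.527 to 9.75 CPM) overlapped mbl-1 and N2 libraries (0.212 to 0.848 CPM). This is a description with no test: transgenic strains and mbl-1 and N2 animals share no table of the authors, and strain, handling and experiment cannot be told apart. hsp-12.6, a small heat shock protein gene known as a target of the FOXO factor DAF-16, went the other way, with medians of 0.376 CPM in transgenic L4 libraries, 1.79 CPM in transgenic 2-day adults and 1.3 CPM in mbl-1 and N2 libraries. It had 0 counts in the third 123CUG strain 1 L4 library, which allows a level of up to 0.0915 CPM (3 counts), a limit that covers counting error only.

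**Figure D2:**
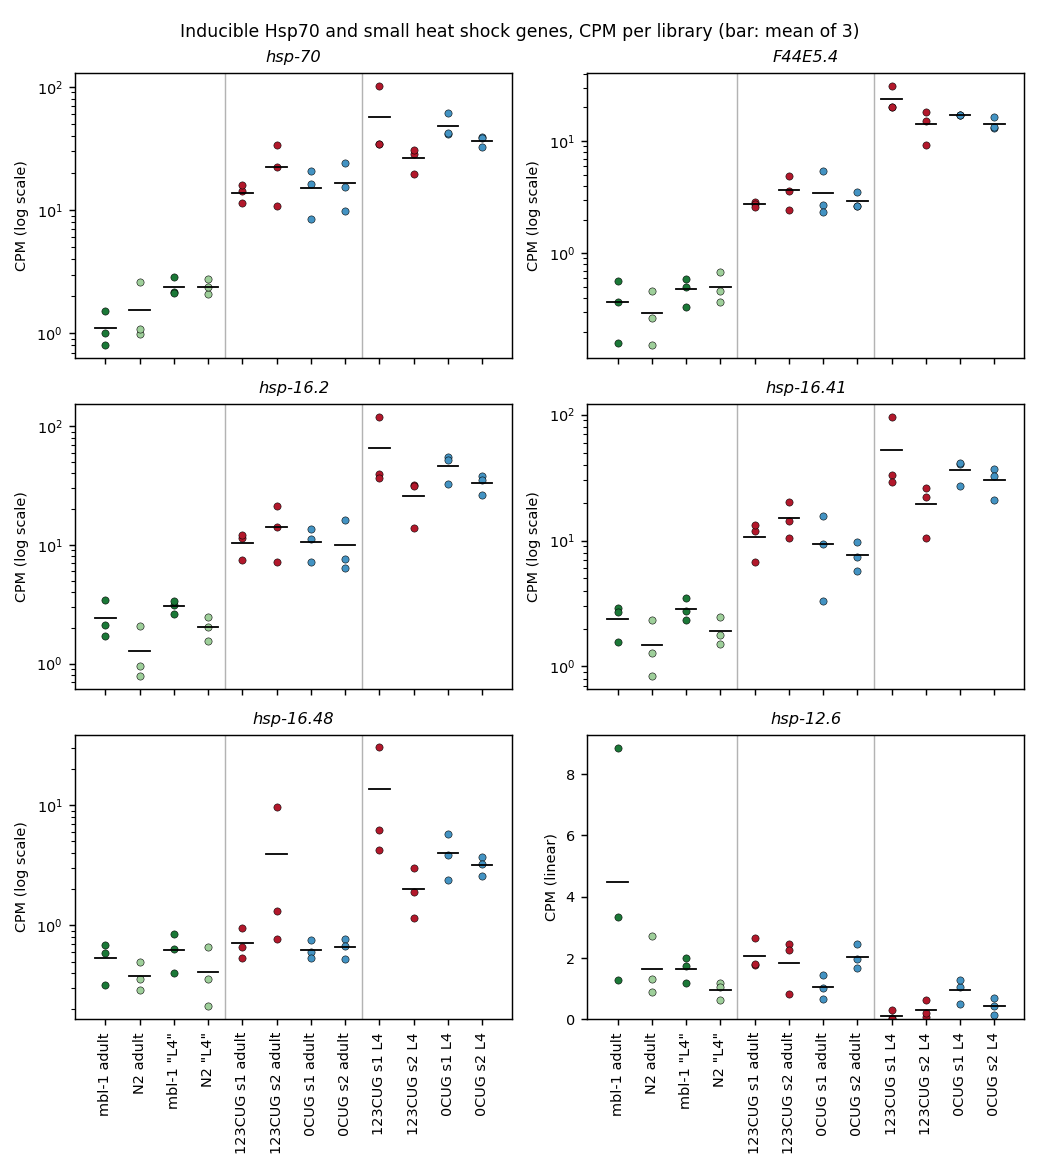
Level in CPM of hsp-70, F44E5.4, hsp-16.2, hsp-16.41, hsp-16.48 and hsp-12.6 in each library (points) with the mean of 3 (bars); the axis is logarithmic except for hsp-12.6. hsp-70, F44E5.4, hsp-16.2 and hsp-16.41 are highest in transgenic L4 libraries, and the first 123CUG strain 1 L4 library stands above the others for hsp-70 (101 CPM) and hsp-16.2 (120.1 CPM).

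The divergent genes hsp-16.2 and hsp-16.41 were read at nearly the same level in each library. Their ratio ran from 0.677 to 2.14 with a median of 1.11, and was within 2-fold in 35 of 36 libraries. Over the 12 group means of log2 CPM their correlation was 0.995, which is given as a description because all genes of a group share its 3 libraries. hsp-16.2 also followed hsp-70 (r = 0.973) and F44E5.4 (r = 0.986), genes of other chromosomes, and the ratio of hsp-16.2 to hsp-70 was within 2-fold in 33 of 36 libraries. hsf-1 followed hsp-90 (r = 0.935) and ran against F44E5.4 (r = -0.911) and hsp-16.2 (r = -0.871). The steps between the 3 sets of libraries carry these values. unc-45 followed none of the constitutive genes (r = -0.301 with hsf-1 and -0.144 with hsp-90).

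Of the near-identical copies, F44E5.4 and F44E5.5 were within 2-fold in 34 of 36 libraries, with a median ratio of 0.991. hsp-16.48 and T27E4.9 were less alike: they were within 2-fold in 28 of 36 libraries, and single libraries stood far out. In the second 123CUG strain 1 L4 library hsp-16.48 had 30.2 CPM and T27E4.9 had 3.43 CPM, in the third 123CUG strain 2 2-day adult library they had 9.75 and 0.674 CPM, and in the first N2 library labelled L4 hsp-16.48 had 0.662 CPM and its ratio to T27E4.9 was 0.0582. Reads could be split between such copies in a way that the counting step, not given in the sources used here, decides. The hsp-16.48 differences below are therefore uncertain, and the value with both copies summed stands beside them; the 2 values differ in sign in mbl-1 against N2 labelled L4 and in the stage change of 123CUG strain 2.

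**Figure D3:**
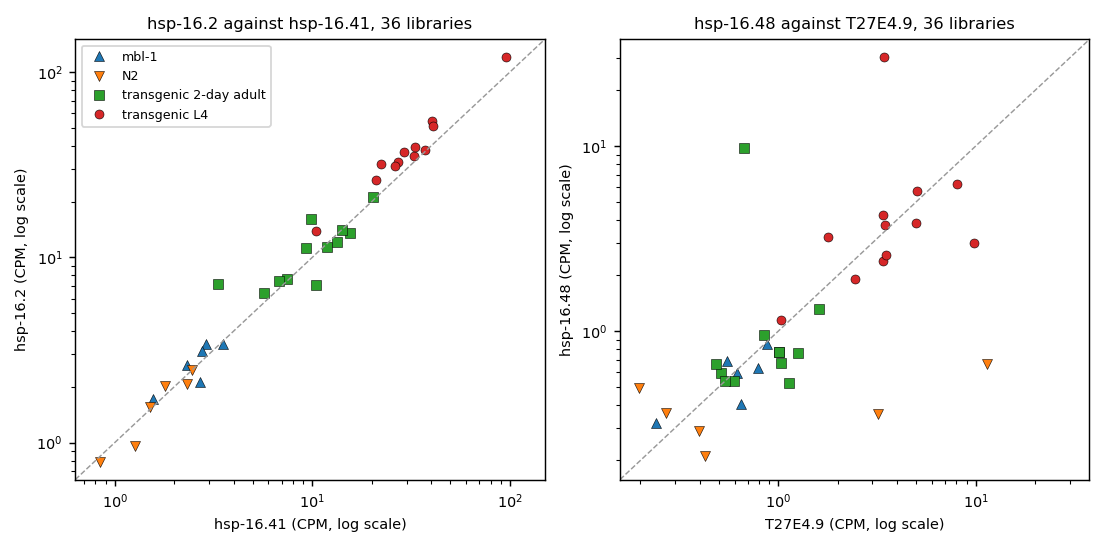
CPM of hsp-16.2 against hsp-16.41 (left) and of hsp-16.48 against T27E4.9 (right) in 36 libraries, on logarithmic axes, with the line of equality dashed. The divergent pair stays near the line (ratio 0.677 to 2.14), while the ratio of hsp-16.48 to T27E4.9 runs from 0.0582 to 14.5.

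Between L4 and the 2-day adult stage hsf-1, hsp-1, hsp-90 and hsp-12.6 rose and hsp-70, F44E5.4, hsp-16.2, hsp-16.41 and hsp-16.48 fell, over both strains of each construct. Within 123CUG strain 2 alone, F44E5.4 was the only 1 of the 5 falling genes to be called. In 123CUG strains all 10 genes were called (edgeR's quasi-likelihood test, Benjamini-Hochberg adjusted p under 0.05 over all genes tested), 4 rising and 6 falling, where 82.6% of all tested genes were called (35.5% rising, 47.1% falling). In 0CUG strains 4 rose and 5 fell, where 82.7% of all genes were called (34.4% rising, 48.3% falling). So large a share of the transcriptome differed that a call alone says little about these genes, and their sizes follow. The median log2 difference of the 10 genes was -0.69 in 123CUG and -0.73 in 0CUG strains, beside -0.41 and -0.48 over all tested genes. Adult and L4 libraries did not overlap for 4 of the 10 genes in 123CUG (63.9% of all genes) and for 8 of the 10 in 0CUG strains (63.2%). Except for hsp-12.6 in 0CUG strains, each called gene was called in 24 of 24 fits that left out 1 library. RNA of whole animals was measured, in which fewer cells of a type and less RNA per cell cannot be told apart.

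hsf-1 averaged 66 ± 4.94 CPM in 123CUG 2-day adults and 20.04 ± 2.52 CPM in 123CUG L4 animals (SD, n = 6 each), a log2 difference of 1.72 ± 0.0923 (SE; adjusted p = 2.41e-15). In 0CUG strains it averaged 67.9 ± 7.7 and 19.3 ± 2.87 CPM, a difference of 1.81 ± 0.0923 (adjusted p = 8.36e-16). hsp-90 rose by 0.67 ± 0.0798 in 123CUG (3376 ± 33.4 CPM in 2-day adults, 2136 ± 364 CPM in L4; adjusted p = 2.34e-08) and by 0.77 ± 0.0799 in 0CUG strains. hsp-1 rose by 0.39 ± 0.0873 in 123CUG and by 0.55 ± 0.0874 in 0CUG strains on the log2 scale. The rise of hsf-1 was seen in each strain, with log2 differences of 1.72 in both 123CUG strains, 1.92 in 0CUG strain 1 and 1.70 in 0CUG strain 2, and adult and L4 libraries overlapped in none of them. Beside these rises, all 13 oocyte and early embryo markers rose in both constructs (median log2 difference 5.84 in 123CUG and 6.36 in 0CUG), none of them at 0 in every library, and their part in the result was not tested.

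The Hsp70 gene F44E5.4 fell in both constructs. It had 2.45 to 4.88 CPM in 123CUG 2-day adults (median 2.82) and 9.2 to 31 CPM in 123CUG L4 libraries (median 19.3), a log2 difference of -2.54 ± 0.211 (adjusted p = 2.1e-11). In 0CUG strains it had 2.33 to 5.41 CPM in 2-day adults (median 2.66) and 13.2 to 17.1 CPM in L4 libraries (median 16.7), a difference of -2.29 ± 0.209 (adjusted p = 1.43e-10). Adult and L4 libraries did not overlap in either construct. Summed with F44E5.5 the differences were -2.67 and -2.48.

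hsp-16.2 had 7.13 to 21.2 CPM in 123CUG 2-day adults (median 11.7) and 13.8 to 120.1 CPM in 123CUG L4 libraries (median 34.4), which overlap, and differed by -1.76 ± 0.353 (adjusted p = 0.00016). In 0CUG strains it averaged 10.4 ± 3.98 CPM in 2-day adults (median 9.41) and 39.7 ± 11.1 CPM in L4 libraries (median 36.6), and differed by -1.91 ± 0.355 (adjusted p = 7.12e-05) without overlap. Its neighbour hsp-16.41 fell by 1.35 ± 0.364 in 123CUG (adjusted p = 0.00233) and by 1.96 ± 0.371 in 0CUG strains (adjusted p = 8.86e-05) on the log2 scale. hsp-70 fell by 1.13 ± 0.321 in 123CUG (18 ± 8.72 CPM in 2-day adults, 41.4 ± 29.9 CPM in L4; adjusted p = 0.0033) and by 1.40 ± 0.321 in 0CUG strains (adjusted p = 0.000571). hsp-16.48 differed by -1.63 ± 0.523 in 123CUG and by -2.46 ± 0.548 in 0CUG strains, and summed with T27E4.9 by -2.07 and -2.21, all called. Of the fits without 1 library, the weakest 123CUG call of hsp-16.48 had an adjusted p of 0.0481 (without the second 123CUG strain 1 L4 library), and the largest difference was -2.63 (without the third 123CUG strain 2 2-day adult library).

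hsp-12.6 was the only small heat shock protein gene among the 4 members of that family to rise. It averaged 1.96 ± 0.661 CPM in 123CUG 2-day adults and 0.208 ± 0.234 CPM in 123CUG L4 animals, a log2 difference of 3.36 ± 0.594 (adjusted p = 1.16e-05), and the libraries did not overlap. In 0CUG strains the averages were 1.54 ± 0.643 and 0.692 ± 0.42 CPM, a difference of 1.18 ± 0.527 (adjusted p = 0.0419) that was called in 17 of 24 fits that each left out 1 library. The test of the difference between constructs gave 2.19 ± 0.778 (adjusted p = 0.104), and none of the 10 genes was called in it (5.93% of all genes were). Beside 3223 of all 17248 genes, 1 of the 10 had an unadjusted p under 0.05. DESeq2 called hsp-12.6 there (adjusted p = 0.0393). unc-45, the myosin chaperone gene, fell by 0.25 ± 0.0703 in 123CUG strains on the log2 scale (72.1 ± 10.6 CPM in 2-day adults, 85.6 ± 7.75 CPM in L4; adjusted p = 0.00188), while its value in 0CUG strains was -0.06 ± 0.0703 (adjusted p = 0.44). Body wall muscle markers fell in the same fit, 12 of 12 in 123CUG and 11 of 12 in 0CUG strains, with summed levels of 1385 to 3476 CPM in transgenic 2-day adults and 6738 to 11984 CPM in transgenic L4 libraries and no marker at 0, and their part in the result was not tested. Intestine markers summed to 1067 to 3383 CPM in transgenic 2-day adults and to 6375 to 9820 CPM in transgenic L4 libraries. Neuron markers summed to 199 to 287 and 444 to 594 CPM. Yolk gene RNA went the other way, at 60299 to 171046 and 1622 to 7933 CPM. The part of these lists was not tested either.

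**Figure D4:**
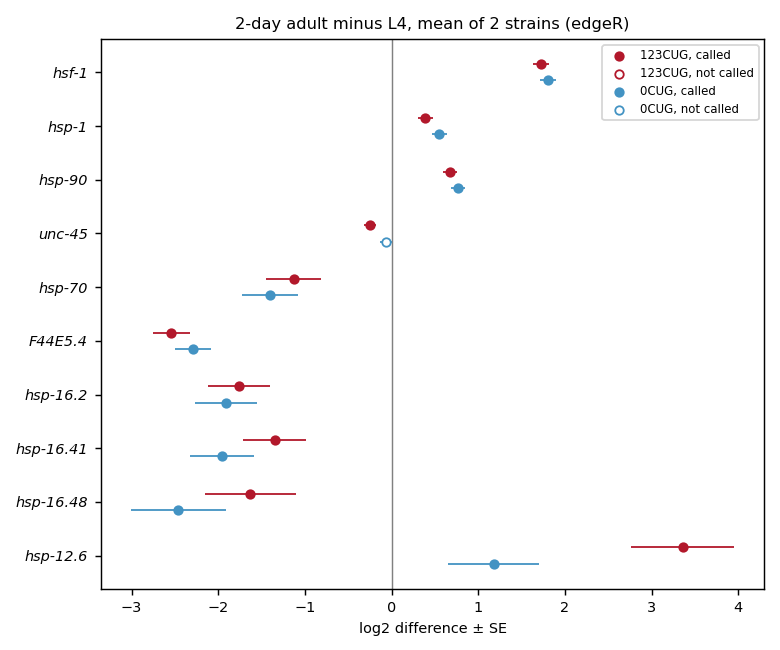
Log2 difference ± SE of 2-day adults minus L4 (horizontal axis) for each of the 10 genes by construct. Filled points had an adjusted p under 0.05. hsf-1, hsp-1, hsp-90 and hsp-12.6 lie to the right and hsp-70, F44E5.4, hsp-16.2, hsp-16.41 and hsp-16.48 to the left in 123CUG and 0CUG strains.

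The 2 strains with 123CUG had unlike calls in this stage change, which alone are no test of a difference between them. The direct test follows after the values. In strain 1, hsp-70 (-2.03 ± 0.464), F44E5.4 (-3.12 ± 0.305), hsp-16.2 (-2.67 ± 0.513), hsp-16.41 (-2.31 ± 0.528) and hsp-16.48 (-4.23 ± 0.807) all fell, as did unc-45 (-0.51 ± 0.0997). With both copies summed hsp-16.48 fell by 3.78 on the log2 scale there (adjusted p = 3.63e-05). In all, 9 of the 10 genes were called in strain 1 (75.0% of all genes). In strain 2, 5 of 10 were called (75.7% of all genes): hsf-1, hsp-1, hsp-90 and hsp-12.6 rose and F44E5.4 fell by 1.97 ± 0.293 on the log2 scale. There hsp-70 had 22.2, 33.8 and 10.7 CPM in 2-day adults, against 28.3, 19.7 and 30.7 CPM in L4 libraries, which overlap (-0.24 ± 0.448; adjusted p = 0.64). hsp-16.2 had 14.1, 21.2 and 7.13 CPM in strain 2 adults, against 31.9, 13.8 and 31.3 CPM in strain 2 L4 libraries (-0.86 ± 0.49; adjusted p = 0.12). hsp-16.48 gave 0.96 ± 0.715 in strain 2, -0.95 without the third adult library of that strain and -0.36 ± 0.601 with both copies summed (adjusted p = 0.598), none of them called.

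The difference of the stage changes, strain 1 minus strain 2, was tested in a comparison added after the values were seen. It called 2 of the 10 genes, both falling, where 3.78% of all genes were called. unc-45 differed by -0.52 ± 0.141 (adjusted p = 0.0365; called in 18 of 24 fits without 1 library), and hsp-16.48 by -5.19 ± 1.07 (adjusted p = 0.00758), or by -3.42 (adjusted p = 0.0347) with its copy summed. hsp-70 (-1.79 ± 0.639; adjusted p = 0.136), hsp-16.2 (-1.81 ± 0.695; adjusted p = 0.169), hsp-16.41 (-1.93 ± 0.723; adjusted p = 0.158) and F44E5.4 (-1.16 ± 0.408; adjusted p = 0.116) did not pass the threshold. Without the first 123CUG strain 1 L4 library, which had the highest level of 7 of the 10 genes among transgenic L4 libraries, the value of hsp-16.41 was -1.22. In the 0CUG strains the same test called none of the 10 genes by edgeR (20.1% of all genes). Beside 5476 of all 17248 genes, 2 of the 10 had an unadjusted p under 0.05. DESeq2 called 2, hsp-1 (0.59, adjusted p = 0.00607) and hsp-90 (0.58, adjusted p = 0.00195), and its share over all genes is not given here. The 0CUG strains were alike in direction: each lost hsp-70, F44E5.4, hsp-16.2, hsp-16.41 and hsp-16.48, with 8 calls in strain 1 (77.7% of all genes) and 9 in strain 2 (72.5%). Summed with its copy, hsp-16.48 differed by -2.58 in strain 1 and by -1.83 in strain 2 (adjusted p = 0.00111 and 0.0147).

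In mbl-1 and N2 animals no member passed the threshold between 2-day adults and animals labelled L4. None of the 10 genes was called by edgeR in mbl-1 (0.563% of all genes), in N2 (0.00%) or in the difference between them (0.00713%), and DESeq2 called 0 in each. An unadjusted p under 0.05 was reached by 2, 0 and 0 of the 10 genes, beside 2066, 2098 and 1364 of all 14027 genes. hsf-1 had 65.4, 70.6 and 88.9 CPM in mbl-1 2-day adults, against 69.7, 76.5 and 58.7 CPM in mbl-1 labelled L4. In N2 it had 93.1, 85.1 and 61.8 CPM in 2-day adults, against 84, 90.5 and 94.8 CPM in libraries labelled L4. hsp-70 had 1.53, 0.803 and 1.01 CPM in mbl-1 2-day adults, against 2.84, 2.16 and 2.14 CPM in mbl-1 labelled L4, which do not overlap (-1.11 ± 0.391; adjusted p = 0.218). Without the third library of both 2-day adult groups, hsp-70 (-1.05; adjusted p = 0.0261), hsp-90 (-0.33; adjusted p = 0.0455) and hsp-12.6 (1.86; adjusted p = 0.0021) were called in mbl-1, where 2026 genes rose and 920 fell of all 14414 tested. In N2 none of the 10, and 0 of all genes, were called without them.

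In animals labelled L4, the mbl-1 mutants had less hsf-1 and constitutive chaperone RNA than N2 and more RNA of 3 small heat shock protein genes. Of the 10 genes, 3 rose and 3 fell, where 51.4% of all genes were called (29.7% rising, 21.7% falling), so the count is close to that of the transcriptome. Libraries did not overlap for 6 of the 10, beside 62.5% of all genes. The median log2 difference was 0.00 for the 10 genes and 0.03 for all genes.

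hsp-1 had 2666, 2877 and 2650 CPM in mbl-1, against 3350, 3881 and 3938 CPM in N2 libraries labelled L4, a log2 difference of -0.39 ± 0.103 (adjusted p = 0.00619). Every mbl-1 library lay below every N2 library, and the call held in 6 of 6 fits that left out 1 library. hsf-1 had 69.7, 76.5 and 58.7 CPM in mbl-1, against 84, 90.5 and 94.8 CPM in N2 (-0.33 ± 0.104; adjusted p = 0.0147), again without overlap, and was called in 4 of 6 such fits. hsp-90 had 3320, 3531 and 3233 CPM in mbl-1, against 4111, 4256 and 4301 CPM in N2 (-0.27 ± 0.1; adjusted p = 0.0328), and was called in 2 of 6. In the authors' deposited table the same 3 genes were lower in mbl-1, with log2 fold changes of -0.45 for hsp-1 (adjusted p = 3.71e-05), -0.33 for hsp-90 (adjusted p = 0.00112) and -0.39 for hsf-1 (adjusted p = 0.00486).

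The rises were of genes with low counts. hsp-16.2 had 3.12, 2.64 and 3.39 CPM in mbl-1, against 2.48, 1.56 and 2.03 CPM in N2 labelled L4 (0.64 ± 0.23; adjusted p = 0.0296). hsp-16.41 had 2.78, 2.32 and 3.52 CPM in mbl-1, against 2.46, 1.51 and 1.79 CPM in N2 (0.62 ± 0.247; adjusted p = 0.0445), and its groups overlap. hsp-12.6 had 2, 1.75 and 1.19 CPM in mbl-1, against 0.639, 1.18 and 1.06 CPM in N2 (0.85 ± 0.313; adjusted p = 0.0324). Each was called in 2 of 6 fits without 1 library, and none was called by DESeq2 or in the authors' deposited table, where their adjusted p-values were 0.0783, 0.108 and 0.0854. The other members gave 0.04 ± 0.226 for hsp-70 (adjusted p = 0.882), -0.04 ± 0.435 for F44E5.4 (adjusted p = 0.948), 0.62 ± 0.474 for hsp-16.48 (adjusted p = 0.28; -1.94 ± 1.13 with both copies summed, adjusted p = 0.222) and -0.18 ± 0.0903 for unc-45 (adjusted p = 0.106; 67.7 ± 4.28 CPM in mbl-1 animals, against 79.8 ± 1.04 CPM in N2 animals).

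Tissue markers moved with the same comparison. All 12 body wall muscle markers rose in mbl-1 (median log2 difference 1.54), with summed levels of 4498 to 6432 CPM in mbl-1 animals, against 1687 to 1849 CPM in N2 animals. Of 13 oocyte markers 11 fell (median -0.62), with summed levels of 4450 to 7050 CPM in mbl-1 animals, against 7508 to 10441 CPM in N2 animals. Intestine markers summed to 3285 to 4655 CPM in mbl-1 animals, against 2239 to 2588 CPM in N2 animals. Neuron markers summed to 250.3 to 300.2 CPM, against 188 to 221 CPM. Moult collagens were lower in mbl-1, at 3.99 to 5.23 CPM, against 8.51 to 9.96 CPM. No marker of these lists was at 0 in every library of either group, and their part in the values of the chaperone genes was not tested. When the test used the spread of all 12 mbl-1 and N2 libraries, 0 of the 10 genes were called, where 856 genes rose and 140 fell of all 14027 tested.

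In 2-day adults none of the 10 genes was called between mbl-1 and N2 by edgeR or DESeq2. Over all genes 0.00% were called by edgeR, and 695 genes, none of them among the 10, had an unadjusted p under 0.05. hsp-12.6 had 8.85, 3.33 and 1.27 CPM in mbl-1 2-day adults, against 0.904, 1.32 and 2.73 CPM in N2 2-day adults (1.45 ± 0.771; adjusted p = 0.91). hsp-16.2 had 3.41, 2.13 and 1.72 CPM in mbl-1, against 0.964, 0.79 and 2.07 CPM in N2 (0.94 ± 0.493; adjusted p = 0.91). For hsp-16.2 the third library of each group is the one that overlaps the other group. For hsp-12.6 the third mbl-1 library lay below the second and the third N2 library. Without the third library of both groups 2957 genes rose and 1459 fell of all 13616 tested, and 4 of the 10 genes were called: hsp-12.6 (2.49 ± 0.507; adjusted p = 0.0147), hsp-16.2 (1.72 ± 0.375; adjusted p = 0.0181) and hsp-16.41 (1.48 ± 0.343; adjusted p = 0.021) were higher in mbl-1 and hsp-90 (-0.49 ± 0.133; adjusted p = 0.0321) was lower. hsp-1 (-0.44; adjusted p = 0.0751) and hsf-1 (-0.33; adjusted p = 0.0822) did not pass. The 2 libraries left out were chosen by marker levels in these same data, which lay toward the other genotype. Leaving them out therefore favours a larger difference, and these calls are no independent evidence of it.

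**Figure D5:**
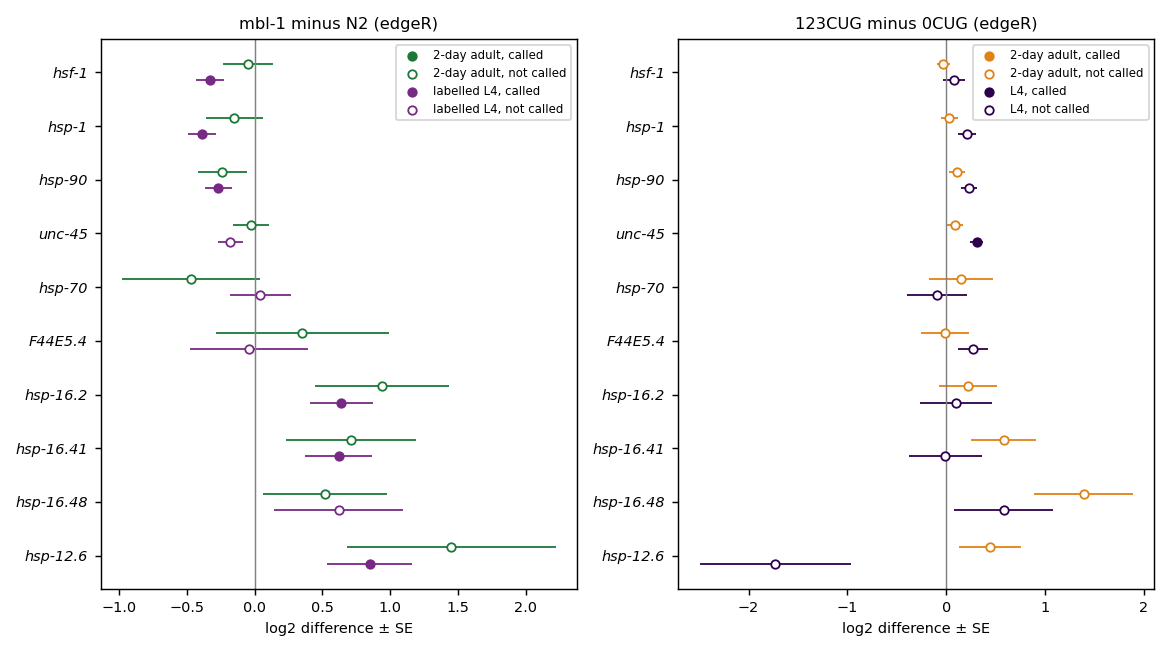
Log2 difference ± SE (horizontal axis) for each of the 10 genes, mbl-1 minus N2 (left panel) and 123CUG minus 0CUG (right panel), at both stages; filled points had an adjusted p under 0.05. In labelled L4 animals hsf-1, hsp-1 and hsp-90 lie below 0 and hsp-16.2, hsp-16.41 and hsp-12.6 above it, and unc-45 in L4 animals is the only filled point on the right.

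Among L4 animals, unc-45 was higher in 123CUG than in 0CUG strains, and it was the 1 gene of the 10 that was called. unc-45 had 96.3, 88.1 and 90.8 CPM in 123CUG strain 1 and 84.1, 75.3 and 79.1 CPM in 123CUG strain 2, against 72.7, 72.8 and 65.8 CPM in 0CUG strain 1 and 64.2, 70.1 and 76.6 CPM in 0CUG strain 2. The log2 difference was 0.31 ± 0.0649 (85.6 ± 7.75 CPM in 123CUG and 70.4 ± 4.69 CPM in 0CUG; SD, n = 6 each; adjusted p = 0.00239), and it was called in 12 of 12 fits without 1 library. Of the 6 libraries of each construct, only the second of 123CUG strain 2 and the third of 0CUG strain 2 overlapped across constructs. Over all genes 14.4% were called, so 1 call of 10 is not above the share of the transcriptome. Against 0CUG strain 1 the difference was 0.48 ± 0.0918 (adjusted p = 0.00103) in 123CUG strain 1 and 0.21 ± 0.0917 (adjusted p = 0.187) in 123CUG strain 2, and the 123CUG strains themselves differed by 0.27 ± 0.0917 (adjusted p = 0.073). Body wall muscle markers summed to 10179 to 11984 CPM in 123CUG and 6738 to 10736 CPM in 0CUG L4 libraries. Of these 12 markers 2 rose and 0 fell, none was at 0, and their part in the result was not tested. Yolk gene RNA was lower in 123CUG, at 1622 to 2679 CPM, against 4306 to 7933 CPM in 0CUG L4 libraries. Sperm markers summed to 35.9 to 81.3 CPM, against 70.6 to 166 CPM, with overlap. The sums of oocyte, intestine, neuron and moult collagen markers also overlapped between the constructs. The part of these lists was not tested either.

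hsp-1 and hsp-90 passed the threshold in the pairs with 123CUG strain 1 but not over both strains. hsp-90 gave 0.23 ± 0.0805 over both strains (adjusted p = 0.0587) and hsp-1 gave 0.21 ± 0.0895 (adjusted p = 0.131). In 123CUG strain 1 against 0CUG strain 1, 3 of the 10 genes were called (16.8% of all genes): unc-45, hsp-1 (0.45 ± 0.127; adjusted p = 0.0192) and hsp-90 (0.43 ± 0.114; adjusted p = 0.0129). Against 0CUG strain 2, which shares the 123CUG libraries, 4 were called (13.6% of all genes): unc-45 (0.41), hsp-1 (0.40), hsp-90 (0.39) and F44E5.4 (0.76 ± 0.213; adjusted p = 0.0233), the last not with its copy summed (0.69; adjusted p = 0.06). hsp-1 had 2930, 2226 and 2471 CPM in 123CUG strain 1, against 2213, 2159 and 1591 CPM in 0CUG strain 1 and 1777, 1959 and 2167 CPM in 0CUG strain 2. The first library of 123CUG strain 1 was the highest, and without it the differences to 0CUG strain 2 were 0.27 for hsp-1 and 0.22 for hsp-90, neither called. In 123CUG strain 2 none of the 10 genes was called against 0CUG strain 1 (8.78% of all genes) or 0CUG strain 2 (3.78%), and DESeq2 called 0 in both. An unadjusted p under 0.05 was reached by 1 and 0 of the 10, beside 3498 and 2134 of all 16210 genes. The authors' deposited tables call hsp-70 lower in 123CUG strain 2 against both 0CUG strains, with log2 fold changes of -0.84 (adjusted p = 0.00012) and -0.52 (adjusted p = 0.0458).

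For hsp-70, hsp-16.2 and hsp-16.41 1 library set much of the difference. hsp-70 had 101, 34.1 and 34.1 CPM in 123CUG strain 1 and 28.3, 19.7 and 30.7 CPM in 123CUG strain 2, against 60.7, 41.7 and 41.9 CPM in 0CUG strain 1 and 32.3, 39 and 38.3 CPM in 0CUG strain 2. The first library of 123CUG strain 1 exceeded every other L4 library for hsp-70, hsp-16.2 (120.1 CPM) and hsp-16.41 (96 CPM). With all libraries the log2 differences between constructs were -0.09 ± 0.304 for hsp-70 (interval -0.69 to 0.50), 0.10 ± 0.367 for hsp-16.2 (-0.62 to 0.82) and -0.01 ± 0.371 for hsp-16.41 (-0.74 to 0.72). Without that library they were -0.48 for hsp-70 (adjusted p = 0.0186), -0.31 for hsp-16.2 and -0.41 for hsp-16.41, and hsp-12.6 was also called (-3.01 ± 0.894, adjusted p = 0.0328). The library was singled out by its high levels of hsp-70, hsp-16.2 and hsp-16.41, so leaving it out lowers their 123CUG side. These calls are therefore no independent evidence of a difference, and the share of all genes called in that fit is not given here. hsp-12.6 with all libraries had 0 to 0.623 CPM in 123CUG (median 0.14) and 0.157 to 1.29 CPM in 0CUG L4 libraries (median 0.598; -1.73 ± 0.767; adjusted p = 0.151). hsp-16.48 gave 0.58 ± 0.502 (adjusted p = 0.523), -0.11 without the second 123CUG strain 1 library and 0.62 with both copies summed (adjusted p = 0.48). hsf-1 gave 0.08 ± 0.109 (adjusted p = 0.697), with an interval of -0.13 to 0.29.

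In 2-day adults none of the 10 genes was called between 123CUG and 0CUG strains by edgeR or DESeq2, where 10.1% of all genes were called by edgeR. Beside 3126 of all 14070 genes, 1 of the 10 had an unadjusted p under 0.05. That gene was hsp-16.48, with 0.539 to 9.75 CPM in 123CUG (median 0.863) and 0.527 to 0.774 CPM in 0CUG 2-day adults (median 0.635). Its log2 difference was 1.39 ± 0.498 (adjusted p = 0.0889), 0.43 without the third 123CUG strain 2 library and 0.74 with both copies summed (adjusted p = 0.23). In the pairs of strains it was called in 123CUG strain 2 against 0CUG strain 1 (2.64 ± 0.704; 13.9% of all genes) and 0CUG strain 2 (2.60 ± 0.71; 20.3%), with 0.75 and 0.66 without that library. With both copies summed these pairs gave 1.82 (adjusted p = 0.0187) and 1.58 (adjusted p = 0.0321). hsf-1 gave -0.03 ± 0.068 (interval -0.16 to 0.10), hsp-1 0.03 ± 0.0848 (-0.13 to 0.20), hsp-90 0.11 ± 0.0844 (-0.05 to 0.28) and unc-45 0.09 ± 0.0789 (-0.06 to 0.25) between constructs. F44E5.4 (-0.01 ± 0.242), hsp-70 (0.15 ± 0.321), hsp-16.2 (0.22 ± 0.293), hsp-16.41 (0.58 ± 0.325) and hsp-12.6 (0.44 ± 0.313) did not pass either. In the single pairs hsf-1 was lower in 123CUG strain 1 than in 0CUG strain 1 (61.7 ± 2.01 and 73.6 ± 5.67 CPM; -0.26 ± 0.0961; adjusted p = 0.0466; 27.6% of all genes called), a call that held in 1 of 12 fits without 1 library. Between 123CUG strain 1 and 0CUG strain 2 none of the 10 was called by edgeR (15.3% of all genes). Beside 4037 of all 14070 genes, 1 of the 10 had an unadjusted p under 0.05. DESeq2 called 1 of the 10, and its share over all genes is not given here. The authors' deposited tables call hsp-90 higher in that pair (0.29, adjusted p = 0.00886). They also call hsp-1 lower in 123CUG strain 1 than in 0CUG strain 1 (-0.20, adjusted p = 0.0154). In 123CUG strain 2 against 0CUG strain 2 they call hsp-16.41 higher (0.99, adjusted p = 0.00546). Against 0CUG strain 1 they do not call hsp-16.48 in 123CUG strain 2 (2.63, adjusted p = 0.088).

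Strains with the same construct also differed from each other. In 2-day adults, hsf-1, hsp-1 and hsp-90 were higher in 0CUG strain 1 than in 0CUG strain 2, where 44.6% of all genes were called. hsp-1 had 3067, 3501 and 3367 CPM in 0CUG strain 1, against 2846, 2406 and 2286 CPM in 0CUG strain 2 (0.42 ± 0.12; adjusted p = 0.00714). hsp-90 gave 0.43 ± 0.12 (adjusted p = 0.00689) and hsf-1 0.27 ± 0.0961 (adjusted p = 0.0272). Fits without 1 library called 0 to 3 of the 10 genes, with 0 calls without the second 0CUG strain 1 library and 1 without the second 0CUG strain 2 library. Yolk gene RNA, a product of the adult intestine, was 60299 to 74113 CPM in 0CUG strain 1 and 141813 to 171046 CPM in 0CUG strain 2 in the same libraries, and its part in these values was not tested. The 123CUG strains differed in hsp-16.48 among 2-day adults (-2.46 ± 0.703, strain 1 minus strain 2; 5.39% of all genes called), by -0.54 without the third strain 2 library and by -1.92 with both copies summed (adjusted p = 0.0312). In L4 animals none of the 10 genes was called between the 0CUG strains by edgeR (1.18% of all genes) or DESeq2. An unadjusted p under 0.05 was reached by 0 of the 10, beside 2379 of all 16210 genes. Between the 123CUG strains at L4, hsp-1 (0.42 ± 0.127; adjusted p = 0.0407), F44E5.4 (0.80 ± 0.213; adjusted p = 0.0236) and hsp-16.48 (2.80 ± 0.74; adjusted p = 0.0429) were higher in strain 1, where 9.63% of all genes were called. Fits without 1 library called 0 to 4 of the 10 genes, with 0 calls without the second or the third 123CUG strain 2 library and 1 call without the first library of either 123CUG strain or the second of 0CUG strain 2. With copies summed, F44E5.4 (0.73; adjusted p = 0.06) and hsp-16.48 (1.57; adjusted p = 0.217) were no longer called.

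The other genes of the chaperone network, from lists of named genes, are counted here without the 10 members. Some J-domain genes also stand in the lists of the endoplasmic reticulum and of mitochondria. Of all genes, 35.5% rose and 47.1% fell with stage in 123CUG, and 34.4% rose and 48.3% fell in 0CUG strains. Between L4 and 2-day adults in 123CUG strains, 11 of 14 genes of the TRiC chaperonin and prefoldin, which fold actin and tubulin, rose and 0 fell (12 and 0 in 0CUG; median log2 difference 0.25 and 0.31). Of 12 cochaperones of Hsp90 and Hsp70, 9 rose and 2 fell in each construct (median 0.52 and 0.55), and of 30 J-domain proteins, which hand clients to Hsp70, 19 rose and 7 fell in 123CUG and 21 rose and 8 fell in 0CUG strains (median 0.42 and 0.54). Of 3 other Hsp70 and Hsp110 genes 2 rose and 1 fell in each construct. Among 6 genes that bind, regulate or act with HSF-1, 5 rose and 1 fell in each construct. Of the 12 other small heat shock protein genes tested, 2 rose and 8 fell in 123CUG and 2 rose and 9 fell in 0CUG strains (median -1.35 and -1.96). The medians of all genes were -0.41 and -0.48. sip-1, a small heat shock protein gene, averaged 574 ± 61.8 CPM in 123CUG 2-day adults and 9.63 ± 4.09 CPM in 123CUG L4 animals (5.97 ± 0.212; adjusted p = 1.63e-16). hsp-43 averaged 425 ± 43.2 CPM in 123CUG 2-day adults and 33.8 ± 3.86 CPM in L4 animals (3.65 ± 0.0887), while hsp-12.1 averaged 1.32 ± 0.33 and 9.98 ± 2.07 CPM (-2.94 ± 0.228). F44E5.5, the copy of F44E5.4, averaged 2.88 ± 1.65 CPM in 123CUG 2-day adults and 19.5 ± 6.89 CPM in L4 animals (-2.81 ± 0.237).

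Of 12 chaperones of the endoplasmic reticulum, 11 fell and 0 rose in 123CUG and 10 fell and 0 rose in 0CUG strains (median -1.62 and -1.43), where 47.1% and 48.3% of all genes fell. pdi-2, a protein disulfide isomerase that works on collagen, averaged 294 ± 33.3 CPM in 123CUG 2-day adults and 2192 ± 167 CPM in 123CUG L4 animals (-2.90 ± 0.0866; adjusted p = 1.7e-20). Moult collagens fell in the same libraries, 9 of 9 in both constructs, and their part in the result was not tested. Of 6 mitochondrial chaperones 3 fell and 0 rose in each construct.

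In mbl-1 against N2 labelled L4, 7 of 14 TRiC and prefoldin genes fell and 1 rose (median -0.23), 14 of 30 J-domain genes fell and 3 rose (median -0.22), and 5 of 12 cochaperone genes fell and 1 rose (median -0.21), beside a median of 0.03 over all genes, of which 29.7% rose and 21.7% fell. Of the 11 other small heat shock protein genes tested, 6 rose and 1 fell (median 0.71). hsp-25, which is found in body wall muscle, averaged 109 ± 18.4 CPM in mbl-1 animals, against 50.7 ± 3.06 CPM in N2 animals (1.16 ± 0.109; adjusted p = 9.73e-07), and sip-1 averaged 665 ± 108 and 1117 ± 244 CPM (-0.69 ± 0.145; adjusted p = 0.00137). pat-10, troponin C of body wall muscle and listed with the HSF-1 genes, averaged 1935 ± 456 CPM in mbl-1 animals, against 668 ± 42.5 CPM in N2 animals (1.59 ± 0.136; adjusted p = 3.7e-07). Of these lists 1 of 3 other Hsp70 and Hsp110 genes rose and 1 fell, 1 of 12 endoplasmic reticulum genes rose and 3 fell, and 1 of 6 mitochondrial genes rose and 1 fell. In mbl-1 against N2 2-day adults none of these lists held a called gene in edgeR's test, as no gene of the whole table was called. In 123CUG against 0CUG at L4, 4 of 12 cochaperone genes and 4 of 12 endoplasmic reticulum chaperone genes rose and none fell (median 0.12 and 0.19, beside 0.02 over all genes). Of all 16210 genes tested there, 825 rose and 1517 fell. fkb-6, a peptidyl-prolyl isomerase cochaperone of Hsp90, averaged 186 ± 9.99 CPM in 123CUG and 162 ± 5.63 CPM in 0CUG L4 animals (0.23 ± 0.0552; adjusted p = 0.00796). TRiC and prefoldin genes (0 of 14) and the HSF-1 genes (0 of 6) held no call there, and of 30 J-domain genes 3 rose and 1 fell. Among the other small heat shock protein genes 0 rose and 1 fell of 12 tested, 1 of 6 mitochondrial chaperone genes rose and 1 of 3 other Hsp70 and Hsp110 genes rose. In 2-day adults 2 of 11 other small heat shock protein genes, 2 of 6 mitochondrial chaperone genes and 1 of 6 HSF-1 genes rose between 123CUG and 0CUG, none of the other lists held a call, and 807 genes rose and 609 fell of all 14070 tested.

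Across the 12 group means of log2 CPM, the genes most like hsf-1 among 9525 genes with at least 5 CPM on average were usp-48, pgm-3 and F12F6.1, each with a Pearson correlation of 0.999. usp-48 had a median of 131 CPM in transgenic 2-day adults and 25.4 CPM in transgenic L4 libraries. The genes most like hsp-1 were hsp-110 (r = 0.983), the Hsp110 gene, and the chaperonin subunit genes cct-8 (r = 0.972) and cct-7 (r = 0.971). Those most like hsp-16.2 were F46C5.10 (r = 0.978), COX3 of the mitochondrial genome (r = 0.961) and mxl-3 (r = 0.960). All points of such a correlation share their libraries and rest on the steps between the 3 sets, so the values are a description.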

How the data were processed

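The values are read counts per gene in whole animals, which the authors deposited as unscaled whole numbers in 10 tables of 6 libraries each. The aligner HISAT2, the test DESeq2 and build WBcel235 come from the submitters' processing notes; no source used here names the counting tool, annotation or strandedness. Log2 fold changes and p-values of the authors' own comparisons stand beside the counts in the deposited tables and are cited only where named as theirs. The 140 other columns of per-sample values were not used. The tables were joined into 24931 named genes, with 457776 repeated values equal and 0 differing; 500 unnamed loci, 0.0201% to 0.0643% of a library, were left out. Symbols came from Ensembl release 115, which matched 24462 identifiers. No sequence is shown, since no genome was used here.

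Each comparison was fitted over all genes with edgeR 4.0.16 in R 4.3.3 (TMM scaling, filterByExpr, robust quasi-likelihood F test, Benjamini-Hochberg adjustment); a gene was called at an adjusted p under 0.05. Fits held 6 libraries (mbl-1 against N2 at a stage), 12 (123CUG against 0CUG at a stage, a coefficient per strain; stage in mbl-1 and N2) or 24 (stage in transgenic strains). CPM were computed on 1 TMM scale over 36 libraries. Standard errors come from the F statistic. The procedure was checked on simulated counts. Alternatives were DESeq2 1.42.0, relative log expression scaling, no filter, a replicate block, larger fits, and leaving out libraries; summing near-identical copies and the strain comparison of stage changes were added after the data were seen. Members and lists were chosen with earlier results of these data known. Named genes are the 10 members and, of the lists, at most the 3 largest called rises and falls per comparison without overlap of libraries and with at least 5 CPM; for hsf-1, hsp-1 and hsp-16.2 the 3 genes most correlated over groups are named.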

Additional observations from a re-analysis of the deposited data

Results flagged for a closer look

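The stage change (2-day adult minus L4) of unc-45 differed between the 123CUG strains by -0.52 on the log2 scale, strain 1 minus strain 2: 67.5, 69.7 and 55.5 CPM in strain 1 adults, against 96.3, 88.1 and 90.8 CPM in strain 1 L4 libraries, and 77.6, 75.8 and 86.7 CPM in strain 2 adults, against 84.1, 75.3 and 79.1 CPM in strain 2 L4 libraries. The stage change of hsp-16.48 differed between the same strains by -5.19: 0.539, 0.957 and 0.661 CPM in strain 1 adults, against 6.23, 30.2 and 4.24 CPM in strain 1 L4 libraries, and 1.32, 0.769 and 9.75 CPM in strain 2 adults, against 3.01, 1.15 and 1.91 CPM in strain 2 L4 libraries. Both passed edgeR's test of the difference (adjusted p = 0.0365 and 0.00758), and leaving out the third strain 2 adult library gave -3.37 for hsp-16.48. With both copies summed the hsp-16.48 difference was -3.42 (adjusted p = 0.0347). This comparison was added after the values were seen, and the unc-45 call was lost in some of the fits without 1 library.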

How the results depend on the processing

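The counts of called members depended on the processing as follows, with the genes rising and falling of all those tested in parentheses. In mbl-1 against N2 labelled L4 the 6 calls (3941 and 2880 of 13264) became 3 with DESeq2 (3536 and 3408 of 17044), 0 in a fit of 12 libraries (856 and 140 of 14027) and 1 to 6 without 1 library. In mbl-1 against N2 2-day adults the 0 calls (0 and 0 of 13286) became 4 without the third library of both groups (2957 and 1459 of 13616). Those libraries were chosen by marker levels in these same data, here and in the stage comparison below. In 123CUG against 0CUG L4 the 1 call (825 and 1517 of 16210) became 2 with DESeq2 (962 and 1766 of 18018), 4 without a filter (1052 and 1846 of 22362) and 1 to 3 without 1 library. In 123CUG against 0CUG 2-day adults the 0 calls (807 and 609 of 14070) became 2 without a filter (867 and 831 of 21001), 1 with the replicate block (839 and 671 of 14070) and 0 to 1 without 1 library. For stage, the 0 calls in mbl-1 (25 and 54 of 14027) became 3 without the third libraries (2026 and 920 of 14414) and 0 to 1 without 1 library. The 0 calls of the stage-by-repeat difference (686 and 336 of 17248) became 1 with DESeq2 (869 and 687 of 16081) and 0 to 1 without 1 library. Where a cause is not given by the setting itself (fewer libraries, other genes tested), the cause was not tested. No call changed sign under these settings. The samples share only a replicate number. The correlations that follow are between log2 CPM values of libraries of different groups, after each gene's group mean was subtracted. Same-numbered libraries correlated at 0.00236 to 0.0569 (labelled L4 of mbl-1 and N2; 0 of 3 pairs over 0.1), -0.733 to -0.105 (their 2-day adults; 0 of 3), -0.673 to 0.185 (both stages of mbl-1 and N2; 3 of 18), -0.0927 to 0.0491 (transgenic L4; 0 of 18), -0.037 to 0.238 (transgenic 2-day adults; 1 of 18) and -0.0763 to 0.161 (all transgenic libraries; 1 of 84). In each transgenic 2-day adult group the third library was the lowest for hsp-70, hsp-16.2 and hsp-16.41. For hsp-70 it had 11.5 and 10.7 CPM in 123CUG strains 1 and 2 and 8.39 and 9.91 CPM in 0CUG strains 1 and 2. F44E5.4 and hsp-16.48 did not keep this order in every group. Apart from the replicate block, a step shared by replicate number in these genes was not tested. The replicate block ended the calls of hsp-90 in mbl-1 labelled L4 (adjusted p = 0.0699) and of hsp-12.6 for stage in 0CUG (adjusted p = 0.0568). It added hsp-16.41 in 123CUG 2-day adults (adjusted p = 0.0315). Relative log expression scaling ended the call of hsp-16.41 in mbl-1 labelled L4 (adjusted p = 0.0539). Depth limits hsp-12.6, hsp-16.48 and, in mbl-1 and N2, F44E5.4, which had 5 to 29 reads there.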
